A study of Mus musculus with 114 samples.

Results

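MHC class I presentation genes were followed in perigonadal adipocytes of mice fed chow or a high fat diet. They are the 10 genes H2-K1, H2-D1, H2-T23, H2-M3, B2m, Tap1, Tap2, Tapbp, Nlrc5 and Erap1, taken by symbol from the 29132 genes listed, and all 10 passed the filter on low values. The mice were male C57BL/6J without a transgene. From an age of 6 weeks they received chow (CD) or high fat food (HFD), and fat was taken after 8, 20 or 34 weeks on it. Each group held 6 mice, apart from 8 in the 34 week CD group. The chow was 1 of 2 formulas, and which mouse received which is not given in the sources used here. Adipocytes were the fraction of the fat pad that floated after collagenase digestion, 1 RNA-seq library set per mouse with its 3 technical replicates merged, and values are CPM, the reads of a gene scaled to a fixed total of 1000000 over the listed genes.

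MHC class I molecules display peptides from inside the cell to CD8+ T cells and NK cells. Peptides are cut by the proteasome, pumped into the endoplasmic reticulum by the transporter Tap1-Tap2, trimmed there by the aminopeptidase Erap1, and loaded with the help of tapasin (Tapbp) onto a heavy chain bound to β2-microglobulin (B2m). Transcription of class I heavy chains and B2m runs through a shared promoter module (the X2 and Y boxes among its parts) and its coactivator Nlrc5, and through interferon response elements and NF-κB sites. Adipose tissue takes up macrophages and lymphocytes in obesity, so a floating fraction can carry RNA of other cells.

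In the 38 mice the diet did not move these genes together. At 8 and 20 weeks B2m and Tapbp were higher in HFD mice while Tap1 and Nlrc5 were lower, and at 20 weeks the heavy chains H2-D1, H2-T23 and H2-M3 were higher as well. Of all genes tested 44.9% differed between the diets at 8 weeks and 57% at 20 weeks. The 20 week calls of B2m, Tapbp and H2-D1 did not pass with TMM factors. At 34 weeks 2 of the 10 genes passed between the diets, H2-M3 and Erap1, both higher, while 43.2% of all genes tested did. Neither of the 2 passed when the 34 week mice were fitted alone. Between 8 and 34 weeks 6 of the 10 rose in CD mice, and Nlrc5 and Erap1 fell, while 40.1% of all genes tested rose and 24.6% fell. In that comparison 73.3% of genes of at most 1500 exon bases rose, and 24.7% of those over 5000 bases.

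Depth lay between 9275711 and 15480388 gene reads in a mouse, so that 1 read was worth 0.0646 to 0.108 CPM, and at 8 weeks every HFD library was deeper than every CD library. The lowest value of any member in any mouse rested on 17 reads (H2-M3). Among adipocyte markers 9 of 9 were detected in every group, with a summed level of 15956 to 45486 CPM per mouse. Of these 9 markers, 1 was higher and 1 lower in HFD mice at 8 weeks, 1 higher and 6 lower at 20 weeks (median log2 fold change -0.68) and 8 lower at 34 weeks (-0.58). The macrophage markers, of which 11 of 12 are listed and none is at 0 in any group, summed to 304 to 1569 CPM in CD and 1113 to 3143 CPM in HFD mice at 8 weeks. They summed to 479 to 3302 and 4368 to 8255 CPM at 20 weeks, and to 1190 to 12319 and 5064 to 15003 CPM at 34 weeks. Of the 11 listed macrophage markers 7, 8 and 9 were higher in HFD mice at 8, 20 and 34 weeks. At 20 weeks 1 was lower. Of 7 markers of lipid-associated macrophages, a separate list, 7, 7 and 5 were higher (median log2 fold changes 2.86, 5.07 and 2.32). Markers of other cell types moved with the diet as well. Of 7 endothelial markers 7, 6 and 6 were higher at 8, 20 and 34 weeks (medians 1.20, 1.08 and 1.22), of the 6 progenitor and fibroblast markers that passed the filter 5, 5 and 3 (1.09, 1.80 and 0.91), and of 3 mesothelial markers 2, 0 and 0. Their part in the class I values was not tested. No T cell, NK cell or B cell marker passed the filter, and their highest sums in a mouse were 5.82, 0.745 and 5.90 CPM. In a bulk sample fewer cells of a type and less RNA per cell cannot be told apart, and a class I transcript carries no mark of the cell type it came from.

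Of the 10 genes, 7 lie within 3.36 Mb of chromosome 17 (GRCm38, GENCODE vM21), the mouse MHC. In that order these are Tapbp (Entrez 21356, chr17:33915899-33929292, plus strand), H2-K1 (14972, chr17:33996017-34000347, minus), Tap1 (21354, chr17:34187553-34197225, plus), Tap2 (21355, chr17:34203527-34216321, plus), H2-D1 (14964, chr17:35262730-35267499, plus), H2-T23 (15040, chr17:36029773-36032855, minus) and H2-M3 (14991, chr17:37270220-37274484, plus). B2m (12010) is at chr2:122147686-122153083, Nlrc5 (434341) at chr8:94434356-94527272 and Erap1 (80898) at chr13:74639568-74693201, all on the plus strand. Exons of other genes cover 24.9% of the exon bases of Tapbp (Gm19412, antisense), 14.1% of Tap2 (Gm15821, antisense) and 11.5% of Erap1 (Cast, antisense), and Tap1 shares 212 exon bases with Psmb9 on the opposite strand. Whether the counting used strand is not given in the sources used here, so a part of these values is uncertain. The classical and nonclassical heavy chains are also close paralogs, between which counting could split or drop reads.

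The promoters show what some of the genes have in common in sequence. The RefSeq promoter table for GRCm38.p6 held 8 of the 10 genes, and Tap2 and Nlrc5 had no entry. Its starts are not always the GENCODE starts given above: the windows searched for H2-D1 and Erap1 lie wholly in annotated exons of these genes, that for Tap1 in exons of Psmb9, and that for Tapbp inside the Tapbp gene. Of the 250 bases searched for H2-T23, 154 lie in exons of H2-T23. In the 250 bases before the RefSeq start, searched on both strands, the X2 core TGACG was found in 5 of the 8 (H2-K1, H2-D1, H2-M3, B2m and Tap1), against 17.9% of 27025 promoters. The 5 are shown here because they include genes that were higher and a gene that was lower in HFD mice. The X2 core is in capitals with 12 bases on each side, 5′ to 3′ on the strand of the gene.
H2-K1 (chr17:34000372-34000400, minus): tccggacactgtTGACGcgcagtcagctc
H2-D1 (chr17:35262981-35263009, plus): ccgggacactgaTGACGcgctggcaggtc
H2-M3 (chr17:37270176-37270204, plus): cccggatactgaTGACGcttctccaattc
B2m (chr2:122147597-122147625, plus): ctaggagactggTGACGacctccggatct
Tap1 (chr17:34187458-34187486, plus): cccagagacaggTGACGacagagggtcct

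The other motifs were the Y box CCAAT in 7 of the 8 promoters (34.5% of all), the interferon response core (GAAA, any pair of bases, GAAA) in 2 (H2-T23 and B2m, 3.04% of all) and the kappa B core GGATTCC in 2 (H2-K1 and H2-D1, 3.21% of all). The interferon response core of H2-T23 lies in the part of its window that is exon of H2-T23. Erap1 held none of the 4 in its window. The promoter of B2m, the light chain, is printed from 200 to 15 bases before the start (chr2:122147487-122147672, plus strand), with the interferon response core, the X2 core and a Y box on the minus strand (ATTGG) in capitals in that order.
B2m: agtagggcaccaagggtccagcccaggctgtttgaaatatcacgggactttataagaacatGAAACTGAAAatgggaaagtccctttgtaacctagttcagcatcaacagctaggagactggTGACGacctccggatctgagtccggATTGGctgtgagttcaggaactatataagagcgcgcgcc
The promoter of H2-M3, a nonclassical heavy chain that presents N-formylated peptides, is printed over the same stretch (chr17:37270034-37270219, plus strand), since its level varied most. It has a Y box before the X2 core and a pair after it, on both strands, and no interferon response core of this spelling.
H2-M3: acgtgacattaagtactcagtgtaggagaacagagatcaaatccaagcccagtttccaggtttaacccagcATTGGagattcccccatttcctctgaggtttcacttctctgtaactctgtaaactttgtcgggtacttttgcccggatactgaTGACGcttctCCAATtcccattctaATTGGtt
A match of letters is a description, and binding was not measured.

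The levels spanned a wide range. Per kilobase of annotated exon, B2m was the most abundant with a mean of 2497 CPM per kb over the 38 mice, followed by H2-D1 with 919 and H2-K1 with 552 CPM per kb. Tapbp stood at 81.1, H2-T23 at 33.4 and Tap2 at 19.6 CPM per kb. Erap1 (9.88), Tap1 (9.43), Nlrc5 (6.56) and H2-M3 (6.10 CPM per kb) were the lowest, so the light chain and the classical heavy chains exceeded the transporter that supplies their peptides. When the 6 groups were put in order of their mean, the ranges of neighbours overlapped for every member and step except one step each in H2-T23 and B2m, which both parted the 20 week CD from the 20 week HFD mice.

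**Figure D1:**
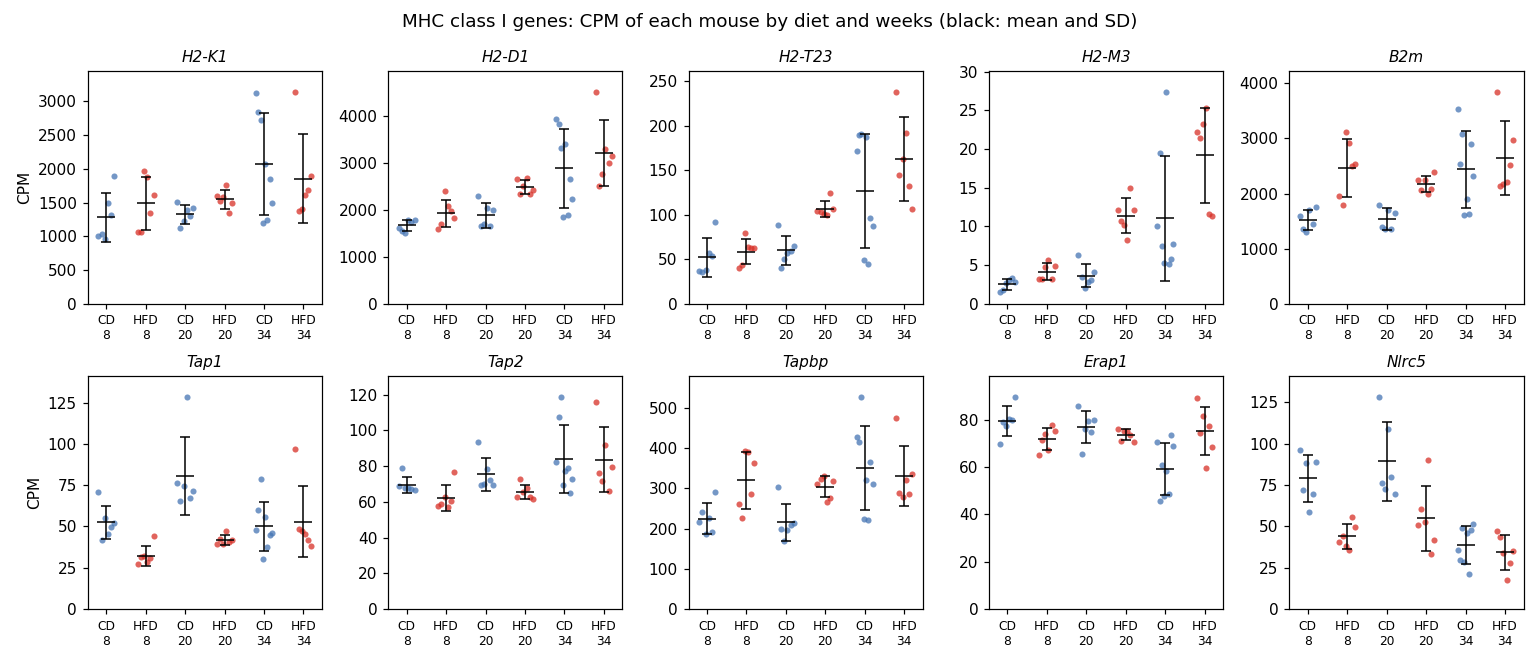
CPM (vertical axis, linear, from 0) of each of the 10 genes in each of the 38 mice (points, CD blue and HFD red) by diet and weeks on the diet, with the group mean and SD in black (n = 6, and 8 for 34 week CD). B2m and Tap1 part the diets in opposite directions at 20 weeks, and the 34 week groups are the widest for the heavy chains.

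The first question was how the diet changed these genes at each time. At 8 weeks 4 of the 10 differed between the diets, 2 higher and 2 lower in HFD mice, while 44.9% of the 10343 genes tested differed (29.8% higher and 15.1% lower). The median log2 fold change on the log2(CPM + 1) scale was 0.21 over the 10 genes and 0.11 over all genes tested.

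B2m, the invariant light chain, ranged from 1308 to 1759 CPM in 8 week CD mice (median 1516) and from 1787 to 3121 CPM in 8 week HFD mice (median 2512). The groups did not overlap, as was the case for 15.7% of genes with HFD higher. The log2 fold change was 0.67 ± 0.17 (SE, limma adjusted p = 0.00191). Tapbp, the peptide-loading bridge, ranged from 187 to 291 CPM (median 221) in CD and from 226 to 392 CPM (median 325) in HFD mice, with 3 of 6 HFD mice above every CD mouse. Its log2 fold change was 0.49 ± 0.18 (limma adjusted p = 0.0230), a call that ended in edgeR's quasi-likelihood test on the recovered reads (adjusted p = 0.0520) and when any of 5 single mice was left out (highest adjusted p = 0.0666 in limma).

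Nlrc5, the coactivator of class I promoters, moved the other way. It ranged from 58.8 to 96.2 CPM (median 80.4) in CD and from 35.5 to 55.7 CPM (median 42.4) in HFD mice. The groups did not overlap, as for 7.14% of genes with HFD lower, and the log2 fold change was -0.83 ± 0.22 (limma adjusted p = 0.00348). Tap1 ranged from 41.9 to 70.8 CPM (median 50.9) in CD and from 27.1 to 44.0 CPM (median 31.0) in HFD mice, with 5 of 6 HFD mice below every CD mouse. Its log2 fold change was -0.68 ± 0.19 (limma adjusted p = 0.00421). The partner subunit Tap2 differed by -0.16 ± 0.12 (limma adjusted p = 0.279), although 5 of 6 HFD mice lay below every CD mouse. Erap1 differed by -0.14 ± 0.10 (limma adjusted p = 0.240) and was called lower with TMM factors (-0.25, limma adjusted p = 0.0269), with median-of-ratios factors, and in edgeR and DESeq2. The heavy chains did not pass at 8 weeks, with log2 differences of 0.21 ± 0.22 (H2-K1), 0.20 ± 0.16 (H2-D1), 0.21 ± 0.29 (H2-T23) and 0.55 ± 0.28 (H2-M3). Of these, H2-K1, H2-D1 and H2-M3 passed under some alternative settings. The lowest adjusted p over all alternatives (limma, edgeR or DESeq2) was 0.0188, 0.0449 and 0.001125 for them and 0.0843 for H2-T23.

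At 20 weeks 7 of the 10 genes differed, 5 higher and 2 lower, while 57% of all genes tested did (38.3% higher and 18.7% lower). The median log2 fold change was 0.32 over the 10 genes and 0.14 over all. H2-M3 showed the largest difference of the 10, from 1.99 to 6.37 CPM (median 3.27) in CD to 8.23 to 14.9 CPM (median 11.4) in HFD mice, without overlap. The log2 fold change was 1.46 ± 0.28 (limma adjusted p = 6.00e-05). H2-T23, the mouse Qa-1 heavy chain that NK cell receptors read, ranged from 39.9 to 88.6 CPM (median 58.4) in CD and from 100.3 to 125 CPM (median 104) in HFD mice, a log2 fold change of 0.85 ± 0.29 (limma adjusted p = 0.0132).

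The classical heavy chain H2-D1 ranged from 1644 to 2293 CPM (median 1848) in CD and from 2324 to 2670 CPM (median 2468) in HFD mice, with a log2 fold change of 0.41 ± 0.16 (limma adjusted p = 0.0267). B2m ranged from 1349 to 1801 CPM (median 1520) in CD and from 1990 to 2389 CPM (median 2161) in HFD mice, with a log2 fold change of 0.50 ± 0.17 (limma adjusted p = 0.0121). H2-D1, H2-T23, H2-M3 and B2m were thus without overlap between the diets, as were 26.1% of genes with HFD higher. Tapbp was higher by 0.52 ± 0.18 (limma adjusted p = 0.0122), with 4 of 6 HFD mice above every CD mouse. H2-K1, the other classical heavy chain of this strain, differed by 0.22 ± 0.22 (limma adjusted p = 0.390), with 4 of 6 HFD mice above every CD mouse.

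Tap1 ranged from 65.7 to 128 CPM (median 73.2) in 20 week CD and from 39.2 to 47.2 CPM (median 41.4) in HFD mice. All HFD mice lay below all CD mice, as for 11.1% of genes, and the log2 fold change was -0.89 ± 0.19 (limma adjusted p = 0.000146). Nlrc5 ranged from 69.8 to 128 CPM (median 78.1) in CD and from 33.2 to 90.3 CPM (median 51.8) in HFD mice, with 5 of 6 HFD mice below every CD mouse and the sixth inside the CD range. Its log2 fold change was -0.72 ± 0.22 (limma adjusted p = 0.00632). Tap2 differed by -0.19 ± 0.12 (limma adjusted p = 0.168) and Erap1 by -0.06 ± 0.10 (limma adjusted p = 0.630).

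The scale of the values bears on the 20 week calls. TMM factors moved the median log2 fold change of all genes from 0.14 to -0.07 at 20 weeks, from 0.11 to 0.00583 at 8 weeks and from 0.07 to -0.01 at 34 weeks, and the share of calls that were higher from 67.1% to 44.7%, from 66.3% to 51.4% and from 63.6% to 51.9%. Relative to that shift the 20 week differences of H2-D1 (0.19, limma adjusted p = 0.249), B2m (0.28, 0.121) and Tapbp (0.30, 0.0971) no longer passed, and Tap2 (-0.41, 0.00354) and Erap1 (-0.27, 0.0106) were called lower. H2-T23 and H2-M3 higher and Tap1 and Nlrc5 lower were called at 20 weeks on the CPM scale, with TMM and median-of-ratios factors, and in edgeR and DESeq2.

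At 34 weeks 2 of the 10 genes differed, both higher, while 43.2% of all genes tested did (27.5% higher and 15.7% lower), and the medians were 0.10 over the 10 genes and 0.07 over all. None of the 10 was without overlap between the diets, against 1.47% of genes with HFD higher and 0.986% with HFD lower. H2-M3 ranged from 5.08 to 27.4 CPM (median 7.61) in CD and from 11.3 to 25.3 CPM (median 21.8) in HFD mice. The groups overlapped, since 1 CD mouse had the highest value of all, and the log2 fold change was 0.91 ± 0.27 (limma adjusted p = 0.00640). Erap1 ranged from 45.8 to 73.4 CPM (median 59.7) in CD and from 59.6 to 89.1 CPM (median 76.0) in HFD mice, with 4 of 6 HFD mice above every CD mouse and a log2 fold change of 0.35 ± 0.09 (limma adjusted p = 0.00316). With the 34 week mice fitted alone neither passed (adjusted p = 0.0693 for H2-M3 and 0.0650 for Erap1 in limma). Tap1 (0.06 ± 0.18), Tap2 (0.00 ± 0.11), Tapbp (-0.06 ± 0.16) and B2m (0.14 ± 0.16) showed differences no larger than their SE, with 95% confidence intervals that reached from -0.30 to 0.41 for Tap1 and from -0.19 to 0.46 for B2m. Nlrc5 differed by -0.18 ± 0.21 (limma adjusted p = 0.497).

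**Figure D2:**
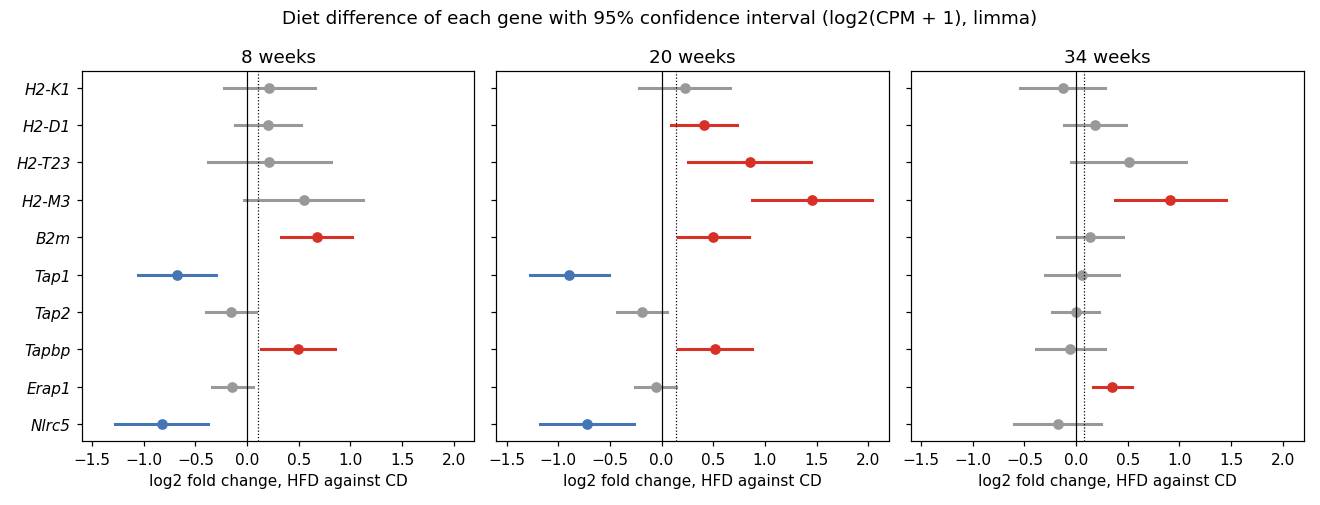
Log2 fold change of HFD against CD on the log2(CPM + 1) scale (horizontal axis) of the 10 genes at 8, 20 and 34 weeks, with 95% confidence intervals from limma; red and blue mark calls higher and lower in HFD mice, grey no call, and the dotted line the median of all genes tested. Tap1 and Nlrc5 lie left of 0 at 8 and 20 weeks (Tap1 at -0.68 and -0.89), opposite to B2m and Tapbp.

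Whether the diet difference changed with time was tested as an interaction. Of the 10 genes none passed between 8 and 20 weeks (limma, 1 of 10 at an unadjusted p under 0.05, H2-M3 with p = 0.0301, and none in edgeR or DESeq2), where 4.49% of all genes did. Between 8 and 34 weeks 2 of 10 passed, both more positive, against 28.8% of all genes (13% more positive). Between 20 and 34 weeks 2 of 10 passed, both more positive, against 10.5% (4.22%). In both cases these were Tap1 and Erap1. With TMM factors the share of more positive calls moved from 40.0% to 67.0% between 20 and 34 weeks. The diet difference of Tap1 was 0.73 ± 0.26 more positive at 34 than at 8 weeks (limma adjusted p = 0.0300) and 0.95 ± 0.26 more positive than at 20 weeks (limma adjusted p = 0.0161). That of Erap1 was 0.49 ± 0.14 (limma adjusted p = 0.00679) and 0.41 ± 0.14 (limma adjusted p = 0.0467) more positive. The first Tap1 call ended without any of 4 single mice (highest adjusted p = 0.0607) and the second Erap1 call without any of 25 (highest adjusted p = 0.0818). For B2m and Nlrc5 the change of the diet difference from 8 to 34 weeks was -0.54 ± 0.23 (limma adjusted p = 0.0755) and 0.65 ± 0.31 (limma adjusted p = 0.106).

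The next question was how the genes changed with time on each diet. In CD mice none of the 10 passed between 8 and 20 weeks (3.58% of all genes did), although 1 had an unadjusted p under 0.05: Tap1, higher by 0.59 ± 0.19 (limma adjusted p = 0.0699), which was called with TMM factors and in edgeR and DESeq2. Between 8 and 34 weeks 8 of the 10 passed, 6 higher and 2 lower, while 64.7% of all genes did (40.1% higher and 24.6% lower). With TMM factors the share of higher calls among all genes moved from 62.0% to 49.8%, and their median from 0.13 to 0.01. The 6 were the heavy chains H2-K1 (0.64 ± 0.20), H2-D1 (0.74 ± 0.15), H2-T23 (1.15 ± 0.27) and H2-M3 (1.57 ± 0.27) with B2m (0.63 ± 0.16) and Tapbp (0.60 ± 0.16). The highest adjusted p among these was 0.00650 (limma). Nlrc5 fell by 1.05 ± 0.21 on the log2 scale (limma adjusted p = 6.36e-05), from 58.8 to 96.2 CPM at 8 weeks to 21.1 to 51.7 CPM at 34 weeks, without overlap, as for 10% of genes in that direction. Erap1 was lower by -0.43 ± 0.09 (limma adjusted p = 0.000143). The 34 week CD mice ranged widely: H2-K1 from 1197 to 3118 CPM and H2-T23 from 45.0 to 190 CPM, the lowest within and the highest far above the 8 week range.

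In HFD mice 2 of the 10 passed between 8 and 20 weeks, H2-T23 (0.88 ± 0.29) and H2-M3 (1.28 ± 0.28), both higher, while 36.5% of all genes did (21.2% higher). These and the diet comparisons share their groups, so they are not independent. Between 8 and 34 weeks 5 passed, all higher, against 52.5% of all genes (31.7% higher): H2-D1 (0.72 ± 0.16), H2-T23 (1.44 ± 0.29), H2-M3 (1.94 ± 0.28), Tap1 (0.64 ± 0.19) and Tap2 (0.40 ± 0.12). B2m, already at 1787 to 3121 CPM in 8 week HFD mice, differed by 0.09 ± 0.17 (limma adjusted p = 0.666).

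Exon length moved with the groups and therefore stands beside these results. The slope of a mouse's log2 deviations on log2 exon length was 0.07 to 0.13 in 8 week CD and -0.02 to 0.09 in 8 week HFD mice. At 20 weeks it was 0.01 to 0.09 in CD and 0.01 to 0.10 in HFD mice. At 34 weeks it was -0.30 to 0.03 in CD mice (median -0.16) and -0.20 to 0.09 in HFD mice (median -0.12). By these medians longer transcripts were relatively lower in both 34 week groups. Across 10296 genes Spearman's rho of length with the log2 fold change was -0.16 for the diet at 8 weeks, 0.03 at 20 weeks and 0.16 at 34 weeks. At 34 against 8 weeks rho was -0.37 for CD and -0.16 for HFD mice. At 20 against 8 weeks it was -0.19 for CD and 0.12 for HFD mice. Nlrc5 (8493 exon bases), Erap1 (7280) and Tap1 (5476) are the longest of the 10 and B2m (860) the shortest. For CD mice at 34 against 8 weeks 73.3% of genes of at most 1500 exon bases were higher and 4.70% lower. Of genes over 5000 bases 24.7% were higher and 37.1% lower. The 6 members that rose there have 860 to 3628 exon bases, and the 2 that fell, Erap1 and Nlrc5, have 7280 and 8493. With the length trend removed per mouse, an alternative chosen after seeing the data, the same members were called in all 3 diet comparisons, and of the 8 calls in CD mice at 34 against 8 weeks only that of B2m was lost.

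The level of each of the other 9 genes relative to B2m within a mouse, the log2 of the ratio of the CPM values with nothing added, is the same under any scaling of a library. B2m was taken as the reference after it had been seen to be higher in every HFD mouse at 8 and 20 weeks, which by itself moves the ratios down, so they are given as a description with no test. At 8 weeks the mean ratio was lower in HFD than in CD mice by -1.52 for Nlrc5, -1.37 for Tap1, -0.84 for Tap2, -0.82 for Erap1 and -0.47 for H2-D1, each without overlap. The differences were -0.46 for H2-K1 and for H2-T23, -0.18 for Tapbp and 0.06 for H2-M3, with overlap.

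At 20 weeks the ratios of Tap1 (-1.41), Tap2 (-0.70) and Erap1 (-0.56) were lower and that of H2-M3 (1.22) higher in HFD mice without overlap. The differences were -1.24 for Nlrc5, -0.28 for H2-K1, 0.37 for H2-T23, -0.09 for H2-D1 and 0.02 for Tapbp. At 34 weeks the diets overlapped in all 9 ratios, with differences of -0.08 for Tap1, -0.32 for Nlrc5 and 0.87 for H2-M3.

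**Figure D3:**
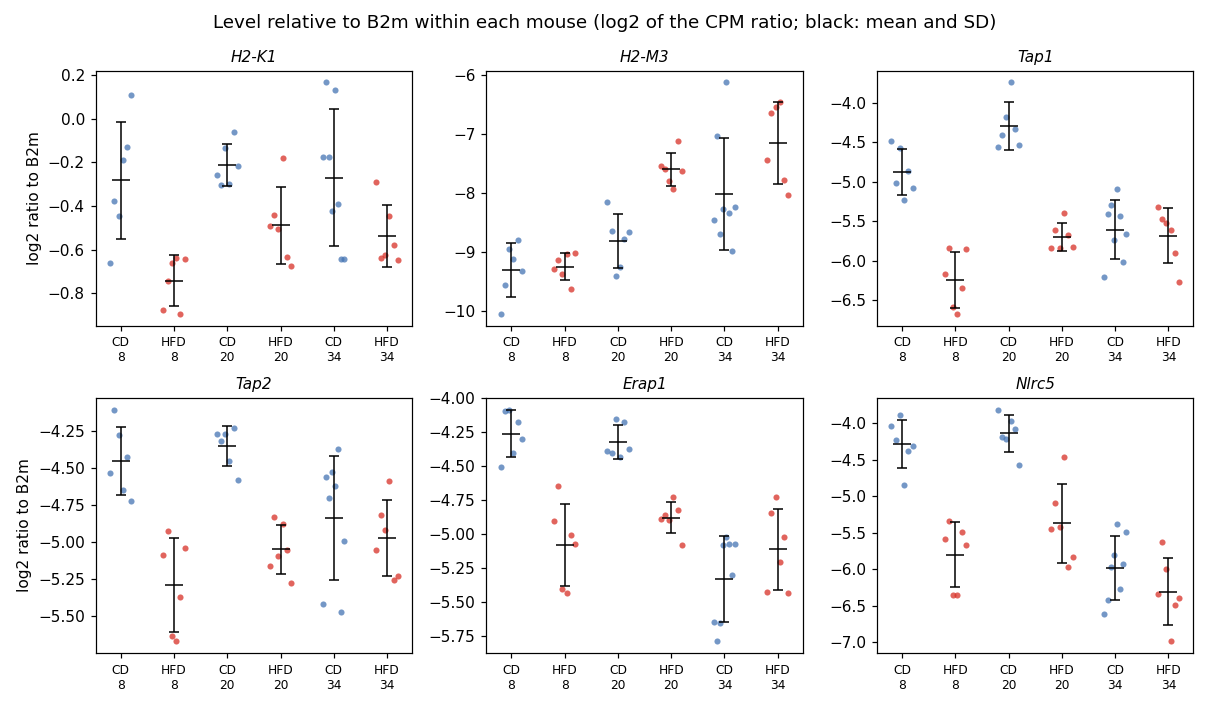
Log2 ratio to B2m within each mouse (vertical axis, log2 of the CPM ratio) for 6 of the 9 other genes by diet and weeks, points for mice (CD blue, HFD red) and the group mean and SD in black. Tap1, Tap2 and Erap1 of HFD mice lie below every CD mouse at 8 and 20 weeks, and at 34 weeks the diets overlap in all 6 panels.

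Other parts of the pathway were counted from lists chosen by function. At 8, 20 and 34 weeks 29.8%, 38.3% and 27.5% of all genes tested were higher and 15.1%, 18.7% and 15.7% lower in HFD mice, the shares against which these counts stand. The 6 immunoproteasome genes are 3 catalytic subunits that replace constitutive ones under interferon γ (Psmb8, Psmb9 and Psmb10) and 3 genes of the PA28 regulator (Psme1, Psme2 and Psme2b). Of these 6, 3 were higher at 8 weeks (Psmb10 by 0.64, Psme2 by 0.42 and Psme2b by 0.37), 1 at 20 weeks (Psmb10 by 0.67) and none at 34 weeks, and none was lower. Psmb8 and Psmb9, which flank Tap1, differed by 0.14 and -0.21 at 8 weeks, 0.39 and -0.28 at 20 weeks and 0.47 and 0.13 at 34 weeks, without passing, and Psme1 by -0.02 to 0.00. In CD mice all 6 were higher at 34 than at 8 weeks, from 0.36 (Psme1) to 1.16 (Psmb10), as were 40.1% of all genes. All 3 constitutive catalytic subunits were higher too, Psmb5 (0.89), Psmb6 (0.76) and Psmb7 (0.47). The 6 immunoproteasome genes have 837 to 3660 exon bases. In that comparison 73.3% of genes of at most 1500 bases were higher. Of those over 1500 and up to 3000 bases 60.1% were, and of those up to 5000 bases 44.2%. Of the 8 peptide-loading chaperones none differed at 8 weeks, 6 were higher at 20 weeks and 5 at 34 weeks, led by Pdia3, the thiol oxidoreductase of the loading complex (0.65 ± 0.14 and 0.64 ± 0.13). Of the 7 other peptidases 1 was higher at 8 weeks (Thop1 by 0.32), 1 higher and 3 lower at 20 weeks (Thop1 by 0.41, Blmh by -0.42) and 1 higher and 2 lower at 34 weeks (Tpp2 by 0.36, Lap3 by -0.35). The 3 constitutive catalytic subunits gave no call at 8 weeks, 1 higher at 20 weeks (Psmb6 by 0.40) and 1 lower at 34 weeks (Psmb7 by -0.30).

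Of the 10 other nonclassical heavy chain genes that passed the filter (22 are listed), 5 were higher and none lower at 8 weeks, 1 was higher and 2 lower at 20 weeks, and 1 was higher and 3 lower at 34 weeks. H2-Q6 had the largest rise each time (1.66, 1.51 and 1.33) and H2-Q10 the largest fall at 20 and 34 weeks (-1.36 and -1.52). Of 24 genes of interferon signalling and class I transcription that passed the filter, 3 were higher and 13 lower at 8 weeks, 6 higher and 10 lower at 20 weeks, and 9 higher and 2 lower at 34 weeks, with medians of -0.34, -0.34 and 0.19 beside 0.11, 0.14 and 0.07 over all genes. Socs1, a feedback inhibitor induced by interferon, fell most at 8 and 20 weeks (-1.65 ± 0.24 and -1.31 ± 0.24) and Irf7 at 34 weeks (-1.30 ± 0.22). The receptor subunit Ifngr2 rose most at 8 and 20 weeks (0.82 ± 0.21 and 1.09 ± 0.21) and Nfya, a Y box factor, at 34 weeks (1.18 ± 0.24). Irf1, an interferon-induced activator named here after its values were seen, ranged from 425 to 851 CPM in CD and from 144 to 461 CPM in HFD mice at 8 weeks (-1.48 ± 0.28), with -0.69 ± 0.28 at 20 weeks and 0.30 ± 0.26, which did not pass, at 34 weeks. Class II genes, which present peptides on macrophages and dendritic cells, contrasted with class I: 7 of the 7 that passed the filter (11 are listed) were higher at each time, with medians of 2.00, 2.05 and 1.83. A gene near the filter can pass it through its higher group, so this count is a description.

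Mice of a group also differed among themselves, and the genes were compared over these differences. Each mouse's deviation from its group mean of log2(CPM + 1) was used (n = 38, two-sided permutation of mice within groups, 100000 resamples). Against the mean of the macrophage markers, H2-M3 gave Pearson's r = 0.82 (Spearman's rho = 0.84, adjusted p = 0.0001 for both by permutation, from the smallest raw p they can give, 1e-05) and r = 0.77 without the 2 mice farthest out. H2-T23 gave r = 0.65 (rho = 0.69, permutation adjusted p = 0.00175 and 0.00045, r = 0.64 without the 2 mice). H2-K1 and H2-D1 gave r = 0.39 and 0.45 (rho = 0.44 for both), which passed for rho (permutation adjusted p = 0.0445 for both) and not for r (0.0980 and 0.0598). For Nlrc5 (r = 0.02), Tap1 (0.08), Tap2 (0.02), B2m (0.19), Erap1 (0.19) and Tapbp (0.33) no relation passed among the 10 tested.

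With the macrophage mean as a covariate in limma, Tap1 and Nlrc5 were called lower and B2m higher at 8 weeks, and Tap1 and Nlrc5 lower at 20 weeks. No higher call at 20 weeks and neither call at 34 weeks passed in that fit, in which the log2 fold change of H2-M3 was 0.50 (limma adjusted p = 0.0603) at 20 and 0.24 (limma adjusted p = 0.399) at 34 weeks. Over all alternatives, this fit among them, the lowest log2 fold change at 20 weeks was 0.06 for H2-T23 and 0.13 for H2-D1. Since the covariate itself differs between the diets, the part of macrophage RNA in the higher values was not tested.

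Against Nlrc5, 2 of the 9 other genes passed: Erap1 with r = 0.585 (rho = 0.55, permutation adjusted p = 0.00819 and 0.00904, r = 0.55 without the 2 mice farthest out) and Tap1 with r = 0.51 (rho = 0.53, permutation adjusted p = 0.0203 and 0.00904, r = 0.53). B2m gave r = 0.30, H2-K1 0.23, H2-D1 0.25 and H2-M3 -0.02 (permutation adjusted p = 0.227 to 0.930). None of the 9 values of r passed with TMM factors, with median-of-ratios factors or without the 34 week CD mice. There r was 0.46, 0.45 and 0.50 for Erap1 and 0.44, 0.44 and 0.50 for Tap1 (permutation adjusted p = 0.0709, 0.0682 and 0.0586 for both genes, n = 30 in the last). Nlrc5, Erap1 and Tap1 are also the longest of the 10 (8493, 7280 and 5476 exon bases). The length slope differed between mice of a group (-0.30 to 0.03 in 34 week CD mice). The part of exon length in these relations was not tested. Over all 38 mice the genes most like the mean standardized level of the 10 were Psmb8 (Pearson's r = 0.91), H2-Q7 (0.84), Sp140 (0.83), Tmem176b (0.83), Psmb9 (0.81) and Sp110 (0.79), given as a description since the mice share diet and time. Among the members themselves H2-T23, H2-D1 and H2-K1 had the same measure at 0.88, 0.88 and 0.88, Tap1 at 0.43, Erap1 at 0.16 and Nlrc5 at -0.09.

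**Figure D4:**
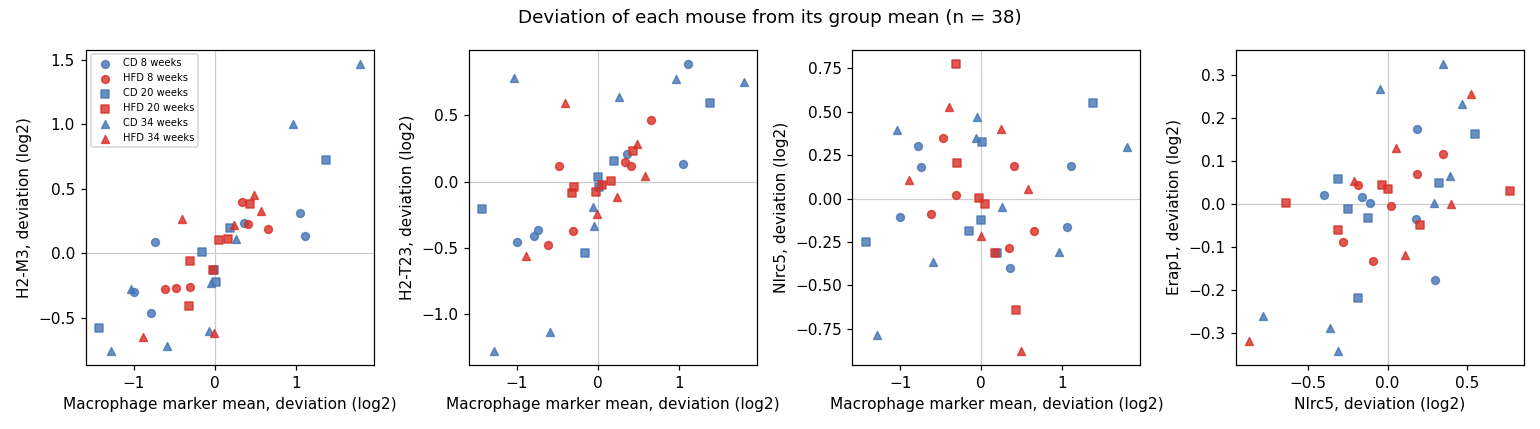
Deviations of the 38 mice from their group means of log2(CPM + 1), CD blue and HFD red, with circles, squares and triangles for 8, 20 and 34 weeks. H2-M3 and H2-T23 follow the macrophage marker mean (r = 0.82 and 0.65), and Nlrc5 does not follow it in these mice (r = 0.02). Erap1 against Nlrc5 gave r = 0.585, a relation that did not pass with TMM factors.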

How the data were processed

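The authors aligned reads of polyA RNA libraries with STAR (mm10), summed them over each gene's exons (GENCODE vM2) by featureCounts, and deposited CPM per mouse; the submitters' processing notes name STAR 2.5 and 2.5.2b and Subread 1.5.1. Genes without an Entrez identifier had been discarded and technical replicates merged. TMM is stated in the methods, yet each column sums to 1000000, so the values were read as plain CPM. All values were whole multiples of 1 read (tolerance 0.1 reads), which recovered the reads for edgeR 4.0.16 and DESeq2 1.42.0.

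Values were transformed to log2(CPM + 1), which understates changes of low genes, and the 10343 genes with a mean above 2 were fitted together in limma 3.58.1 (R 4.3.3; 6 groups, 32 residual degrees of freedom, trend, Benjamini-Hochberg over all genes tested, threshold 0.05, two-sided). The step was tested on simulated data. Permutation tests used scipy 1.17.1. H2-M3 is the member nearest the filter. The 10 members were named by the rule, and other genes as the largest called rise and fall of each list. Members and lists were chosen with earlier results of these data known. The confidence intervals come from the limma fit, and so from the spread between mice. Reads carry no molecular identifiers. Positions come from GENCODE vM21, a later release than that used for counting, and promoters from RefSeq GRCm38.p6. Libraries of the stromal vascular fraction were not analysed here.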

Additional observations from a re-analysis of the deposited data

Results flagged for a closer look

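The diet difference of 2 genes changed with time by the interaction test in limma. For Tap1 the change was 0.73 from 8 to 34 weeks and 0.95 from 20 to 34 weeks on the log2 scale, and for Erap1 it was 0.49 and 0.41. The first Tap1 call was lost with a replicate block (limma adjusted p = 0.0589) and without any of 4 single mice. A further alternative lost it as well, since the highest adjusted p over all alternatives (limma, edgeR or DESeq2) was 0.0746. The second Erap1 call was lost without any of 25 of the 38 mice. In 20 week mice Tap1 was lower on HFD in 6 of 6 mice, and at 34 weeks 5 of 6 HFD mice lay below and 1 above the CD mean.

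A sample far from the rest of its group by Dixon's test was found in 7 of the 60 combinations of a gene and a group, where chance flags about 1 in 20. HFD mouse 1 at 34 weeks was high in Tap1 (96.6 CPM) and Tapbp (476 CPM). HFD mouse 6 at 8 weeks was high in Tap1 (44.0 CPM) and Tap2 (76.9 CPM). CD mouse 4 at 20 weeks was high in Tap1 (128 CPM), CD mouse 2 at 8 weeks in Tap2 (78.8 CPM) and HFD mouse 5 at 20 weeks in H2-T23 (125 CPM). Without HFD mouse 1 at 34 weeks the log2 difference of Tap1 at that time was -0.13, against 0.06 with it.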

How the results depend on the processing

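Of 90 pairs of same-numbered mice from different groups, 30 correlated above 0.1, with a range from -0.68 to 0.55. Pairs of different numbers were not compared, so whether mice of one number pair was not tested. With a replicate block in limma the number of members called moved by over 1.5 times only for the diet difference at 34 against 8 weeks (1, Erap1, against 2), and Tap2 joined the calls in CD mice at 34 against 8 weeks (9 against 8).

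Array weights called 7 members at 8 weeks, 1 for CD mice at 20 against 8 weeks, 4 for HFD mice at 20 against 8 weeks, and 1, 4 and 5 for the diet difference at 20 against 8, 34 against 8 and 34 against 20 weeks. A mean above 3, which drops H2-M3, called 1 at 34 weeks and 1 for HFD mice at 20 against 8 weeks. Fitting each time separately called 0 at 34 weeks. The macrophage covariate called 2 at 20 weeks, 0 at 34 weeks, 5 for CD mice at 34 against 8 weeks, and 0 and 1 for HFD mice at 20 and 34 against 8 weeks. With TMM, median-of-ratios, edgeR and DESeq2, 1 was called for CD mice at 20 against 8 weeks, and DESeq2 called 4 for the diet difference at 34 against 8 weeks. With no filter 1 was called for that at 34 against 20 weeks. Relations with Nlrc5 numbered 0 under TMM, median-of-ratios and without 34 week CD mice. For the settings of this section the share of all genes called is not given here, so these counts of members cannot be set against it. The cause of these moves was not tested.

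Leaving out single mice gave 3 to 4, 6 to 7 and 2 to 2 members called for the diets at 8, 20 and 34 weeks, 0 to 1 and 8 to 9 for CD and 2 to 3 and 5 to 5 for HFD mice over time, 0 to 0, 1 to 4 and 1 to 2 for the diet differences between times, and 6 to 7, 6 to 7 and 0 to 1 ratios to B2m past an exact permutation test, which the report does not use because B2m was chosen for its values.

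The sign turned with the macrophage covariate for H2-K1 (-0.0324), H2-T23 (-0.35) and H2-M3 (-0.13) at 8 weeks, H2-K1 (-0.12) at 20 weeks, and H2-D1 (-0.0145) and H2-T23 (-0.0507) at 34 weeks. At 34 weeks it also turned for Tap1 with TMM (-0.0325), median-of-ratios (-0.0347), edgeR (-0.0054), DESeq2 (-0.0074) and array weights (-0.0430), for B2m with array weights (-0.0930), and for Tap2 with the length trend removed (0.0138). Leaving out single mice at 34 weeks gave -0.13 to 0.15 for Tap1, -0.10 to 0.0696 for Tap2 and -0.17 to 0.0361 for Tapbp. None of these values passed. Of 1693 single-gene values under alternatives, 1589 had the same direction and side of the threshold. Most of these alternatives left out a single mouse, often from a group outside the comparison, which leaves the fold change as it was. The count is therefore no measure of how firm the results are. Depth limits H2-M3 most, which rested on as few as 17 reads.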
